A study of Mus musculus with 11 samples.

Results

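Messenger RNA of 10 genes of the NF-kB pathway was followed in sorted haematopoietic stem cells of C57BL/6 mice: the subunit genes Rela, Relb, Rel, Nfkb1 and Nfkb2, the inhibitor and feedback genes Nfkbia, Nfkbiz, Bcl3 and Tnfaip3, and the target gene Icam1. The genes were chosen by name, and 10 of 10 were found among 49585 entries of the count table. All 10 also passed the filter on low counts, as did 13448 genes in all. The sorted cells were lineage-negative, c-Kit+ and Sca-1+, lacked CD48, carried CD150, and were divided into CD41- and CD41+ fractions. CD41 is an integrin chain of the megakaryocyte lineage that some stem cells also carry.

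The 4 groups were control CD41- (3 libraries), control CD41+ (2 libraries), depleted CD41- (3 libraries) and depleted CD41+ (3 libraries). Control mice had received control rabbit serum, and depleted mice were examined 24 h after platelet depletion. Neither the depleting agent nor the age of the mice is stated in the labels. Each library held RNA of 1000 cells pooled from 3 mice, so the libraries are replicates of pools and the spread between single mice was not measured. The design asks how the CD41 fractions differ and how each responds to an acute loss of platelets.

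NF-kB is a family of dimeric transcription factors. In a resting cell the dimers are held in the cytoplasm by IkappaB proteins. Signals from receptors such as those for tumour necrosis factor or interleukin-1 activate a kinase complex that marks IkappaB for destruction, and the freed dimers enter the nucleus. They then switch on genes that include their own brakes, above all Nfkbia, which encodes IkappaBalpha, and Tnfaip3, which encodes the ubiquitin-editing enzyme A20. The pathway is best known from inflammation, and it also acts in the survival and differentiation of blood stem cells.

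The binding element of these dimers can be read in the members' own promoters, which are printed because 5 members carry it next to a transcription start. RefSeq promoter windows on GRCm38.p6, 250 bases before to 50 bases after a start, were matched for 7 of 10 members, and Nfkbiz, Nfkb1 and Relb were not matched. The kappaB consensus, a pattern of 10 letters searched on both strands with overlapping matches kept, was present in the windows of Nfkbia, Tnfaip3, Nfkb2, Bcl3 and Rel and not in those of Icam1 and Rela. Over all 32851 windows the share with a match was 4.51%, and over 27025 genes it was 5.14%. A looser pattern of the same length, which fixes the leading 3 G and the closing 2 C alone, occurred in windows of 7 of 7 members, but also in 50.8% of all windows. The 4 windows below are written from 5′ to 3′ on the strand of the gene, with the bases of kappaB matches in capitals. They lie at chr12:55492598-55492897 (minus strand) for Nfkbia, chr10:19015361-19015660 (minus strand) for Tnfaip3, chr19:46304487-46304786 (plus strand) for Nfkb2 and chr7:19822706-19823005 (minus strand) for Bcl3.
Nfkbia: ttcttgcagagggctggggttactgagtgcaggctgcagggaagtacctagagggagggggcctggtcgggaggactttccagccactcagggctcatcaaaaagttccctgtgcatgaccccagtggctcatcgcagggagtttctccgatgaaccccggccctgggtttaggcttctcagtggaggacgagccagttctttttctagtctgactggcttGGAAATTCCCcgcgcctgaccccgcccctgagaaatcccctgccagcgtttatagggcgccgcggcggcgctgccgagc
Tnfaip3: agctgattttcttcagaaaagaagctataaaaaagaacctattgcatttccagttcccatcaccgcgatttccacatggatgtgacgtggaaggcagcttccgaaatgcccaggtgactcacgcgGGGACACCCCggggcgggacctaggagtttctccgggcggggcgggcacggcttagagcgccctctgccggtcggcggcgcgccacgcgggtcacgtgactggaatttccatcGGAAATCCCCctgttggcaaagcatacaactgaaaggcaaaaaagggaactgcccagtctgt
Nfkb2: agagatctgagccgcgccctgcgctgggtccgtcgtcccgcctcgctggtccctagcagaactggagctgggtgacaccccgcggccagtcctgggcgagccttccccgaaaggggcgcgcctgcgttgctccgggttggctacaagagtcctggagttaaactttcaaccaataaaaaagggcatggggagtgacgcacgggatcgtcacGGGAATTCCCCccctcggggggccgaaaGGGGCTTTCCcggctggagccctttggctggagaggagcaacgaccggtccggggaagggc
Bcl3: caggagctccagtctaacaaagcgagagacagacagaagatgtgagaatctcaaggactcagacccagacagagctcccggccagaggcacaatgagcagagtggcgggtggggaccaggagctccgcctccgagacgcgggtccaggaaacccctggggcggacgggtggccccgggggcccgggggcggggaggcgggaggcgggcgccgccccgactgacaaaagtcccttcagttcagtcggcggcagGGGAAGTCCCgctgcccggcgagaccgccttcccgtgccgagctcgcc

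The match in Nfkbia began 29 bases before the start and read GGGAATTTCC on the opposite strand. The printed Tnfaip3 window held 2 matches, GGGACACCCC at 125 bases before the start and, on the opposite strand, GGGGATTTCC at 12 bases before it. The other Tnfaip3 window, at another start, held 0. In the printed Nfkb2 window, GGGAATTCCC and its neighbour in another frame overlapped at 39 bases before the start. There GGGGCTTTCC followed at 11 bases before it, and the other Nfkb2 windows also held matches. The match in Bcl3 lay within the transcript, at base 3. Rel, whose window is not printed, held GGGAAATCCC at 92 bases before the start. These are matches of letters, and occupancy by NF-kB was not measured.

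Total counts per library ran from 0.974 M (depleted CD41+ replicate 1) to 9.95 M (depleted CD41- replicate 1), with a median of 3.88 M. Members with few reads were therefore measured coarsely in the shallowest library, which held 1 read of Rel, 3 of Tnfaip3, 4 of Nfkbiz, 5 of Relb and 7 of Bcl3, against 122 of Nfkbia. The 8 markers of the sorted stem cells were detected in all 11 libraries. Markers of neutrophils, a cell type outside the sort gate, summed to between 4419 and 84391 CPM. Values below are CPM, counts brought to a common library total and scaled by TMM, a normalisation that assumes most genes do not change, and log2 fold changes are given ± SE. Tests are quasi-likelihood tests of edgeR over 13448 genes with Benjamini-Hochberg adjustment, and a gene was called at an adjusted p under 0.05. In bulk RNA, fewer cells with a transcript and less transcript per cell cannot be told apart.

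Levels between members were compared per length, as RPKM, the same scale divided by the kilobases of exon, averaged over the 4 groups. Nfkbia was the most abundant member at 117 RPKM, with single libraries between 74.4 and 164 RPKM. Rela, which encodes the transactivating subunit p65, followed at 40.5 RPKM (26.9 to 51.1), and no library of Nfkbia was as low as the highest library of Rela. Icam1 stood at 14.0 RPKM (7.91 to 21.0) and Nfkb1, the gene of the precursor p105 of p50, at 13.8 RPKM (11.5 to 15.95). Those 2 overlapped each other and no other member.

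A lower tier of 6 members followed, in which each gene's libraries overlapped those of its neighbours. Nfkb2, the gene of the precursor p100 of p52, had 3.71 RPKM and Relb, the subunit that pairs with p52, 2.78 RPKM. Tnfaip3 had 1.84 RPKM, Bcl3, a nuclear IkappaB-like cofactor of p50 and p52, 1.74 RPKM, Nfkbiz, the nuclear IkappaBzeta, 1.30 RPKM, and Rel, the subunit c-Rel, 1.07 RPKM. The pair made by the canonical subunits Rela and Nfkb1 was thus present at a higher transcript level than the noncanonical pair Nfkb2 and Relb. The place of Nfkb1 depended on the length used: with the longest transcript in place of all exons it stood at 40.0 RPKM, Icam1 at 24.0 RPKM and Rela at 45.8 RPKM.

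**Figure D1:**
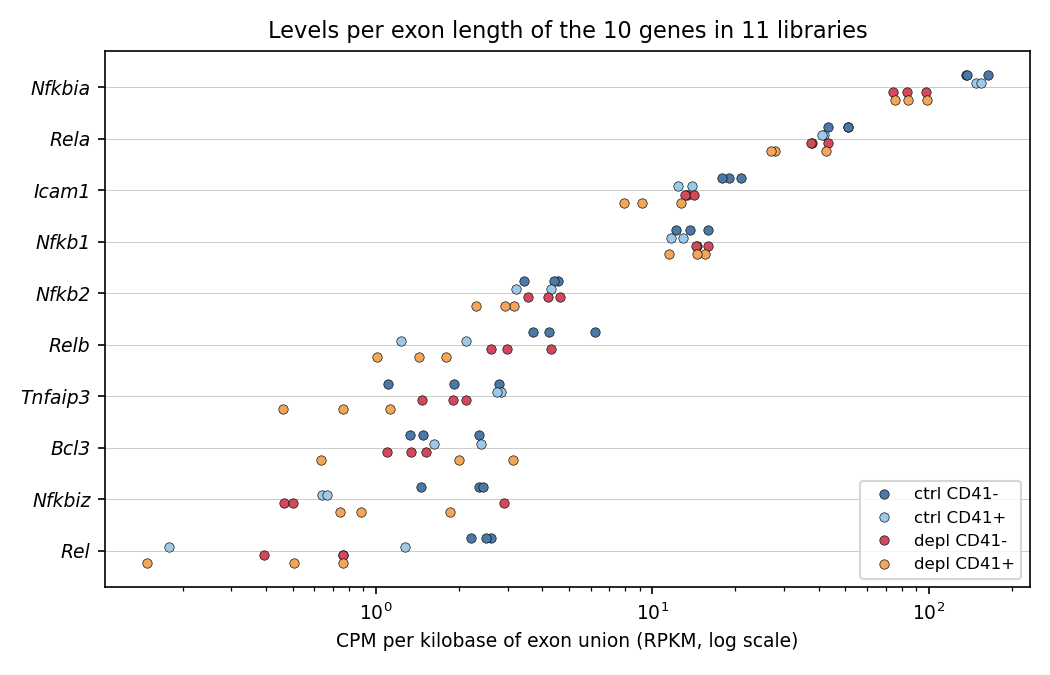
RPKM of the 10 members on a log axis, 1 point per library, coloured by group, with the genes ordered by their mean over the 4 groups. Nfkbia (117 RPKM) and Rela (40.5 RPKM) stand apart at the top, and the 6 lowest genes overlap.

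Nfkbia fell after platelet depletion. In control mice its level was 219, 222 and 263 CPM in CD41- cells and 239 and 248.7 CPM in CD41+ cells. In depleted mice it was 135, 119.8 and 158 CPM in CD41- cells and 136, 122 and 158 CPM in CD41+ cells. Every depleted library lay below every control library, in both fractions. The group means were 235 ± 24.6 and 244 ± 6.97 CPM in control CD41- and CD41+ cells (SD, n = 3 and 2), and 137 ± 19.1 and 138 ± 18.5 CPM in the depleted groups (SD, n = 3 each).

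Averaged over the fractions, Nfkbia (ENSMUSG00000021025, chr12:55489410-55492647 on GRCm38, minus strand) was 1.74-fold lower after depletion (log2 -0.80 ± 0.12, adjusted p = 0.0021). It was the single member called in this comparison, in which 6.33% of all genes tested were called. The call held in 17 of 17 alternative fits, with adjusted p between 3.01e-07 and 0.0158. Within CD41- cells the log2 fold change was -0.77 ± 0.16 (adjusted p = 0.0172, where 3.19% of genes were called), and again no other member was called. That call was lost without control CD41- replicate 3 (adjusted p = 0.0723) and without depleted CD41- replicates 1 (0.0936) or 2 (0.0801), over a range of 0.000368 to 0.0936 in 18 alternatives.

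Within CD41+ cells the log2 fold change of Nfkbia was of the same size, -0.82 ± 0.18, and did not pass (adjusted p = 0.111, 0.00938 to 0.409 over 18 alternatives). No member was called there, and 0.104% of all genes were. The depletion responses of the fractions in Nfkbia differed by -0.04 ± 0.24 on the log2 scale (95% interval -0.56 to 0.48, adjusted p = 0.993).

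**Figure D2:**
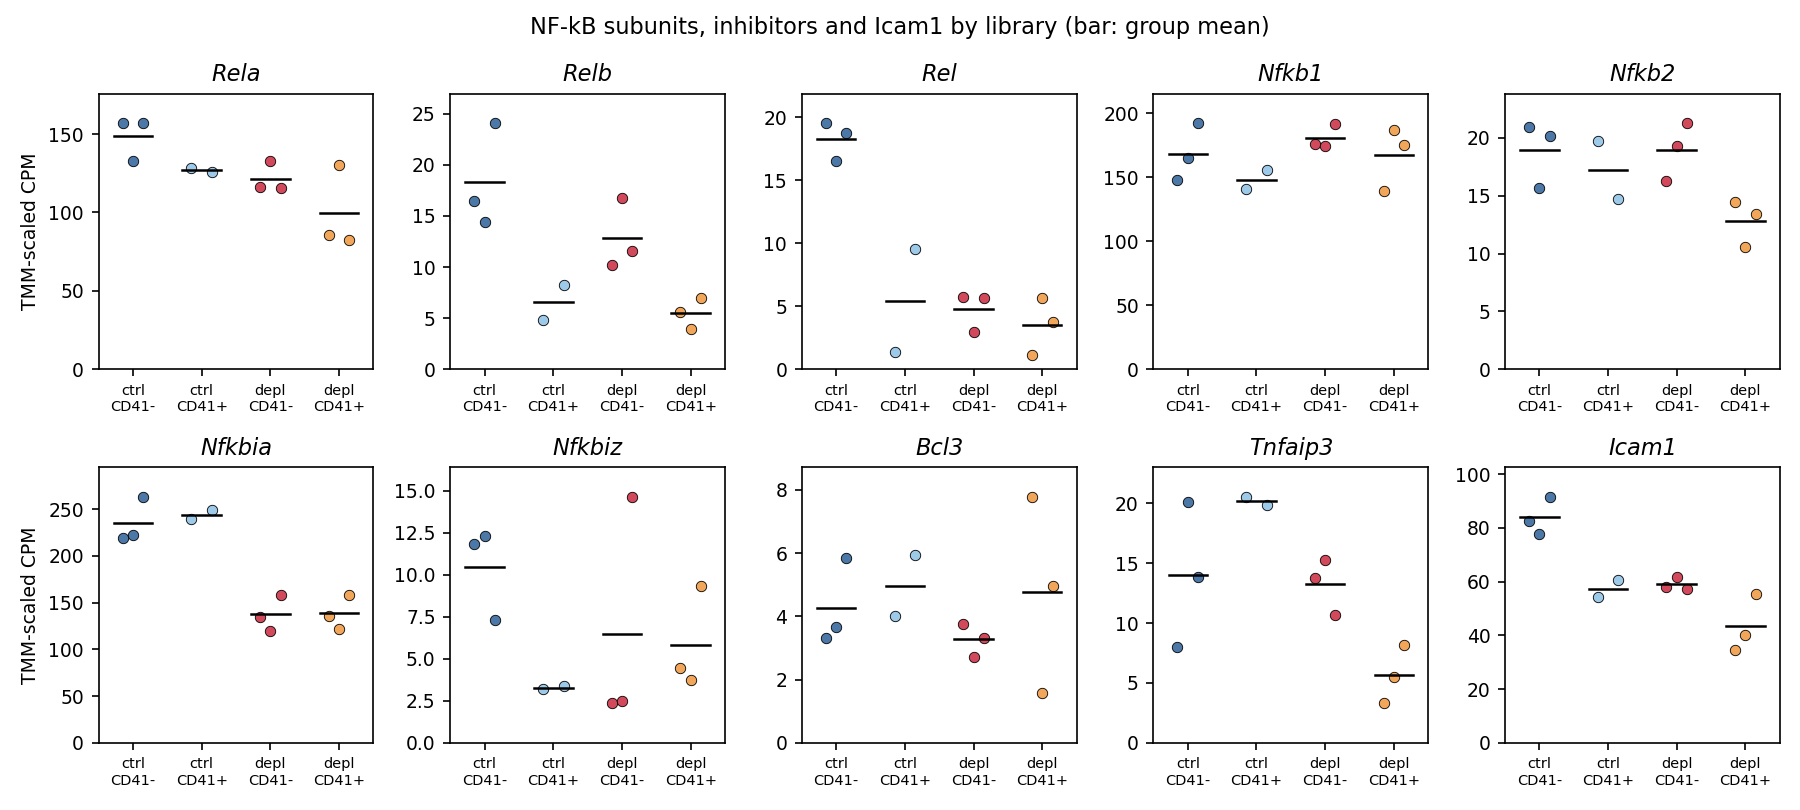
CPM of each of the 10 members in every library, 1 panel per gene, with the mean of each group as a bar line. Nfkbia shows 2 separate levels, 219 to 263 CPM in control and 119.8 to 158 CPM in depleted mice, in both fractions.

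Other RNA moved with the depletion as well. The summed 8 stem cell markers were at 1375 to 1864 CPM in depleted against 2235 to 2946 CPM in control CD41- cells, and at 779 to 1543 against 1659 to 2226 CPM in CD41+ cells. The 6 megakaryocyte markers, all detected in every library, summed to 61.7 to 89.2 against 97.6 to 162 CPM in CD41- cells and 171 to 240.5 against 261 to 578 CPM in CD41+ cells. Of the 5 T and NK cell markers, 2 to 5 were detected per library, and their sum was 64.3 to 91.1 against 93.9 to 111 CPM in CD41- cells and 114 to 123 against 176 to 227 CPM in CD41+ cells. Nearly all of that sum was Nkg7, while Cd3d, Cd3e and Cd3g did not exceed 1.75, 1.11 and 1.83 CPM in any library. The sum of the 7 erythroid markers, all detected, was lower in depleted CD41+ cells alone, at 584 to 1677 against 1883 to 2144 CPM, and the groups overlapped in CD41- cells. The neutrophil, macrophage, and endothelial and stromal sums overlapped between control and depleted libraries in both fractions. In CD41- cells 11 of 12 neutrophil and 10 of 10 macrophage markers had positive log2 fold changes. In CD41+ cells 1 of 12 and 4 of 10 had. Of the 9 tested endothelial and stromal markers, 6 were positive in CD41- and 9 in CD41+ cells. No marker of these lists was called for depletion in either fraction. The part of these RNAs in the Nfkbia result was not tested.

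Tnfaip3 had its lowest values in depleted CD41+ cells. The libraries gave 3.34, 5.49 and 8.16 CPM there, against 20.6 and 19.9 CPM in the control CD41+ libraries; the CD41- libraries gave 7.98, 20.2 and 13.9 CPM for control and 13.8, 15.3 and 10.6 CPM for depleted mice. The 3 depleted CD41+ libraries lay below both control CD41+ libraries, whereas control and depleted CD41- libraries overlapped. In CD41+ cells the log2 fold change on depletion was -1.74 ± 0.45 and did not pass after adjustment (adjusted p = 0.164, 0.0353 to 0.409 over 18 alternatives, the lowest from DESeq2). In CD41- cells it was -0.08 ± 0.39 (adjusted p = 0.95), and averaged over the fractions -0.91 ± 0.30 (adjusted p = 0.086, called with DESeq2).

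The difference between these responses, -1.66 ± 0.59 on the log2 scale, was the one member value of that kind with an unadjusted p under 0.05 (adjusted p = 0.645). No gene of the whole table was called for the difference of responses (0%), where 825 genes had an unadjusted p under 0.05 and DESeq2 called 35. The other 9 members gave differences between -0.45 (Nfkb2) and 1.57 (Nfkbiz), each with a 95% interval that included 0. With 3 to 28 reads of Tnfaip3 in the depleted CD41+ libraries, the counts themselves were small.

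Rel was high in 1 group. Control CD41- libraries had 19.5, 16.5 and 18.7 CPM, control CD41+ libraries 1.34 and 9.55 CPM, depleted CD41- libraries 5.70, 2.93 and 5.68 CPM and depleted CD41+ libraries 1.11, 5.68 and 3.79 CPM. The 3 control CD41- libraries lay above the other 8. On depletion the log2 fold change in CD41- cells was -1.92 ± 0.59, which did not pass (adjusted p = 0.101) but was called in 6 of 18 alternatives, DESeq2 and limma voom among them (adjusted p 0.0162 to 0.251). In CD41+ cells it was -0.44 ± 0.69 and turned to 1.56 without control CD41+ replicate 2, so the value rested on that library. Averaged over the fractions the log2 fold change of Rel was -1.18 ± 0.45 (adjusted p = 0.141), and -0.18 at its weakest with 1 library left out.

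Icam1, the endothelial and leukocyte adhesion molecule that binds beta-2 integrins, was highest in control CD41- cells. Control CD41- libraries had 82.5, 77.7 and 91.7 CPM, control CD41+ libraries 54.2 and 60.6 CPM, depleted CD41- libraries 58.1, 61.6 and 57.2 CPM, and depleted CD41+ libraries 34.5, 40.2 and 55.4 CPM. The 3 control CD41- libraries overlapped no other group. The log2 fold change on depletion averaged -0.45 ± 0.15 (adjusted p = 0.0915, 0.0453 to 0.244 over 17 alternatives).

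The remaining subunit and feedback genes passed in none of the depletion comparisons. Rela averaged a log2 fold change of -0.32 ± 0.14 (adjusted p = 0.202), with group means of 149 and 127 CPM in control and 121 and 99.6 CPM in depleted CD41- and CD41+ cells. Nfkb1 varied least between libraries, at 139 to 192 CPM over all 11 libraries (0.14 ± 0.12, adjusted p = 0.543). Nfkb2 was at 10.6 to 14.5 CPM in depleted CD41+ libraries and at 14.7 to 21.3 CPM in the other 8, with an average of -0.23 ± 0.22. Relb (-0.39 ± 0.30), Bcl3 (-0.29 ± 0.46) and Nfkbiz (0.07 ± 0.50) had wide errors.

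Nfkbiz varied widely between replicates. Depleted CD41- libraries had 2.34, 2.51 and 14.7 CPM, so that replicate 3 carried most of the group's mean of 6.51 ± 7.06 CPM (SD, n = 3). The other groups were at 11.8, 12.3 and 7.30 CPM (control CD41-), 3.21 and 3.35 CPM (control CD41+) and 4.45, 3.72 and 9.32 CPM (depleted CD41+). Without depleted CD41- replicate 3, the averaged log2 fold change turned from 0.07 to -0.62.

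Over the 10 members, the median log2 fold change on depletion was -0.44 in the CD41- fraction, -0.36 in the CD41+ fraction and -0.35 over both, with 9, 8 and 8 negative values, against medians of -0.03, -0.01 and -0.01 over all genes tested. The libraries of control and depleted mice did not overlap for 4 members in CD41- cells (Nfkbia, Rel, Icam1 and Rela, all lower), where the same held for 25% of all genes. They did not overlap for 4 members in CD41+ cells (Nfkbia, Tnfaip3 and Nfkb2 lower, Nfkbiz higher), against 27% of all genes. Both depletion comparisons and the CD41 comparisons draw on the same groups, so their values are not independent.

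**Figure D3:**
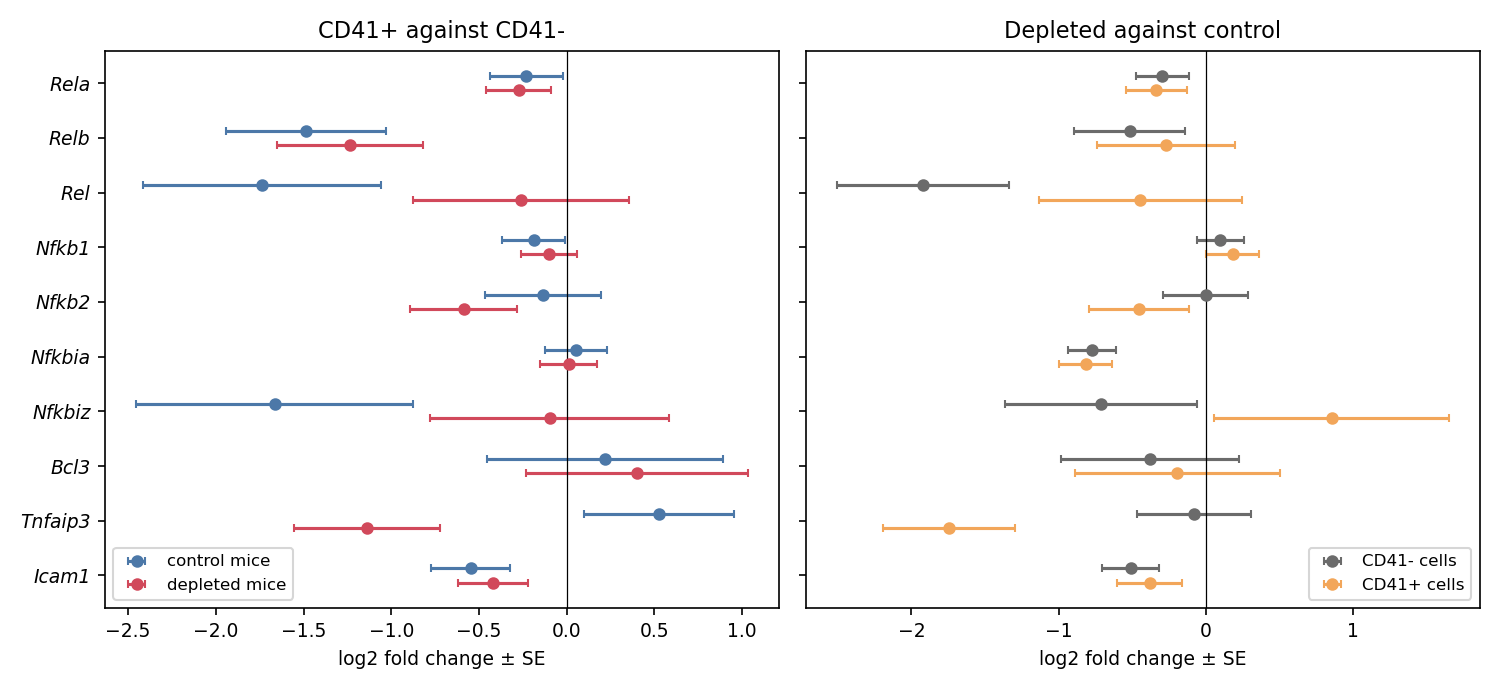
Log2 fold change ± SE of the 10 members for CD41 in control and depleted mice and for depletion in CD41- and CD41+ cells. Averages over fractions or treatments are not drawn, and the points do not mark the adjusted p. Nfkbia for depletion in CD41- cells (-0.77) is the single value drawn that was called.

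Relb was lower in CD41+ than in CD41- cells. Its libraries gave 16.5, 14.4 and 24.1 CPM in control CD41- cells, 4.81 and 8.26 CPM in the control CD41+ fraction, 10.2, 16.8 and 11.6 CPM in depleted CD41- cells and 5.56, 3.92 and 6.99 CPM in depleted CD41+ cells. No CD41+ library reached the lowest CD41- library, in either treatment. Averaged over treatments Relb (ENSMUSG00000002983, chr7:19606217-19629438, minus strand) was 2.56-fold lower in CD41+ cells (log2 -1.36 ± 0.31, adjusted p = 0.0219). It was the single member called, and 5.38% of all genes were called in that comparison.

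The Relb call held in 16 of 18 alternatives (adjusted p 0.00243 to 0.0933) and was lost when either control CD41+ replicate 1 (0.0933) or depleted CD41- replicate 2 (0.0590) was left out. Neither single comparison passed, at -1.48 ± 0.46 in control mice (adjusted p = 0.0975, 0.0432 to 0.370 over 19 alternatives) and -1.23 ± 0.41 in depleted mice (adjusted p = 0.325). In those comparisons no member was called, and 2.62% and 0.193% of all genes were. The 2 CD41 differences of Relb differed from each other by 0.25 ± 0.61 on the log2 scale (95% interval -1.05 to 1.55).

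Other RNA also differed between the CD41 fractions. In control mice the 12 neutrophil markers, detected in every library, summed to 24216 to 84391 CPM in CD41+ against 8694 to 15119 CPM in CD41- libraries. The 10 macrophage markers, 9 or 10 of them detected, summed to 2097 to 7010 against 1362 to 1628 CPM. Most of that sum was Lyz2, with means of 4338 against 1374 CPM, while Cd68 was lower (10.6 against 16.2 CPM). The endothelial and stromal markers, 6 to 10 of 10 detected, summed to 214 to 355 against 132 to 173 CPM. In that list Cxcl12 differed most, with means of 137 against 1.23 CPM. Pecam1 (48.1 against 67.7 CPM) and Emcn (32.0 against 58.2 CPM) were lower, and 7 of 9 tested markers had positive log2 fold changes. The erythroid markers summed to 1883 to 2144 against 273 to 1319 CPM and the megakaryocyte markers to 261 to 578 against 97.6 to 162 CPM. The T and NK cell markers summed to 176 to 227 against 93.9 to 111 CPM. The sum of the stem cell markers was lower, at 1659 to 2226 against 2235 to 2946 CPM, and so was that of mitochondrially encoded transcripts, at 17291 to 24242 against 32922 to 44306 CPM. In depleted mice the neutrophil, macrophage, endothelial and stromal, erythroid, stem cell and mitochondrial sums overlapped between the fractions. Most single markers still differed in the same direction as in control mice. Positive log2 fold changes were found for 11 of 12 neutrophil, 9 of 10 macrophage and 7 of 7 erythroid markers. The same held for 8 of 9 tested endothelial and stromal markers, but for 2 of 8 stem cell markers. The sums of the megakaryocyte markers (171 to 240.5 against 61.7 to 89.2 CPM) and of the T and NK cell markers (114 to 123 against 64.3 to 91.1 CPM) were higher there, and the sum of the gated-out genes Cd48, Flt3 and Ptprc was lower (236 to 314 against 401 to 407 CPM), although Cd48 itself was at 62.5 ± 37.5 CPM in CD41+ against 42.2 ± 13.6 CPM in CD41- cells (SD, n = 3 each). The part of these transcripts in the Relb result was not tested.

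The median CD41 difference of the 10 members was -0.33 on average, -0.21 in control and -0.27 in depleted mice, with 8, 7 and 8 negative values and a median of -0.03 over all genes in each. In control mice 5 members did not overlap between the fractions (Rela, Relb, Rel, Nfkbiz and Icam1, all lower in CD41+ cells), as did 34.9% of all genes. In depleted mice it was 4 members (Relb, Tnfaip3, Nfkb2 and Icam1, all lower), against 17.7% of all genes. Nfkbia did not pass between the fractions: its averaged CD41 difference was 0.03 ± 0.12 (95% interval -0.23 to 0.29), and its sign changed with library size alone as scaling (-0.06).

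Among the other members, Icam1 averaged a CD41 difference of -0.48 ± 0.15 (adjusted p = 0.0747, 0.0394 to 0.217 over 18 alternatives, called by DESeq2 and without depleted CD41+ replicate 3). Rel averaged -0.998 ± 0.455 (adjusted p = 0.207). Tnfaip3 gave 0.53 ± 0.43 in control and -1.14 ± 0.42 in depleted mice, and neither value passed. Their contrast is the difference of responses given above, which did not pass either (adjusted p = 0.645). Rela (-0.25 ± 0.14), Nfkb2 (-0.36 ± 0.23), Nfkb1 (-0.14 ± 0.12), Nfkbiz (-0.88 ± 0.52) and Bcl3 (0.31 ± 0.46) did not pass.

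Icam1 (ENSMUSG00000037405, chr9:21015985-21028817, plus strand) shares its locus with an annotated gene on the opposite strand, Gm47079. That gene had 1645 reads over all libraries, between 21.8 and 55.8 CPM, and its highest value was in control CD41+ cells, where Icam1 was not high. In these counts, reads of the 2 genes cannot be told apart where they overlap. No source used here names the strand setting of the counting. The relatives and partners Icam2, Icam4, Itgal, Itgam and Itgb2 all had positive averaged CD41 differences, opposite in sign to Icam1. Of these 5, Icam2 was called (0.53 ± 0.13, adjusted p = 0.0351), with 104 and 95.3 CPM in CD41- and 150 and 139 CPM in CD41+ cells of control and depleted mice. Itgb2, which encodes the shared beta-2 chain of leukocyte integrins, had 331 ± 159 CPM in control CD41+ against 98.2 ± 11.7 CPM in control CD41- cells (SD, n = 2 and 3) and did not pass. Neutrophil transcripts were high in the same control CD41+ libraries, and their part was not tested.

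The wider pathway was read from 6 lists of 96 other genes, of which 78 passed the filter: 14 of 15 further inhibitors, 15 of 15 kinases and ubiquitin ligases, 16 of 16 adaptors, 13 of 15 receptors, 6 of 11 ligands and 14 of 24 targets. Ligands and targets that did not pass included Il1a, Il6, Lta, Cxcl1, Cxcl2 and Nos2. By mean CPM over the groups the most abundant genes of each list were Ltb (75.0) and Il18 (31.0) among ligands, Tnfrsf1a (108) and Tnfrsf1b (58.3) among receptors, and Myd88 (97.1) and Birc2 (92.7) among adaptors. They were Rbck1 (236) and Tbk1 (104) among kinases and ligases, Tax1bp1 (428) and Irak3 (81.0) among inhibitors, and Sod2 (153) and Vcam1 (125) among targets.

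Ltb, the membrane anchor of lymphotoxin and a ligand that feeds the noncanonical branch, was called in 5 of the 7 comparisons. Its libraries had 186, 131 and 174 CPM in control CD41- cells, 54.8 and 51.3 CPM in the control CD41+ fraction, 52.8, 72.7 and 52.3 CPM in depleted CD41- cells and 20.0, 21.0 and 30.3 CPM in depleted CD41+ cells. The control CD41- libraries were the highest and the depleted CD41+ libraries the lowest, with the other groups between and overlapping each other. Ltb was lower in CD41+ cells (log2 -1.46 ± 0.17, adjusted p = 0.00069) and after depletion (-1.30 ± 0.16, adjusted p = 0.000887), both averaged and both called in every alternative run (18 and 17). It was also called in control mice (-1.63 ± 0.25), in depleted mice (-1.29 ± 0.23, adjusted p = 0.0407, called in 7 of 19 alternatives, 0.17 without depleted CD41- replicate 2) and for depletion in CD41- cells (-1.47 ± 0.21). The call in control mice was lost without control CD41+ replicate 2 (adjusted p = 0.0705).

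After depletion, 5 of the 78 genes were called as lower and 1 as higher on average over the fractions. The median log2 fold change over the 78 was -0.19. Over all genes tested 6.33% were called, 484 higher and 367 lower, with a median of -0.01, so the number called was near the background. Besides Ltb, the lower genes were Irf1, an interferon regulatory factor and NF-kB target (-0.78 ± 0.16, adjusted p = 0.0109), Tnfrsf1b, the second receptor for tumour necrosis factor (-0.78 ± 0.17, adjusted p = 0.018), the cytokine Il18 (-0.77 ± 0.18, adjusted p = 0.0249) and Birc2, the ubiquitin ligase cIAP1 (-0.56 ± 0.14, adjusted p = 0.0327). The gene that rose was Tax1bp1, an adaptor of A20 and of selective autophagy, from 327 to 401 CPM in the 5 control libraries to 435 to 566 CPM in the 6 depleted libraries (0.51 ± 0.11, adjusted p = 0.0128). Calls of Irf1 and Tax1bp1 were lost without control CD41+ replicate 1 (adjusted p = 0.0529 and 0.0599), as was that of Tnfrsf1b (0.0619), which was also lost without control CD41+ replicate 2 (0.0614) and depleted CD41- replicate 3 (0.0516). Il18 and Birc2 were each called in 9 of 17 alternatives, with adjusted p up to 0.107 and 0.177, both without control CD41+ replicate 1. In CD41- cells Ltb alone of the 78 was called, where 3.19% of all genes were, and in CD41+ cells none was, against 0.104% of all genes.

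**Figure D4:**
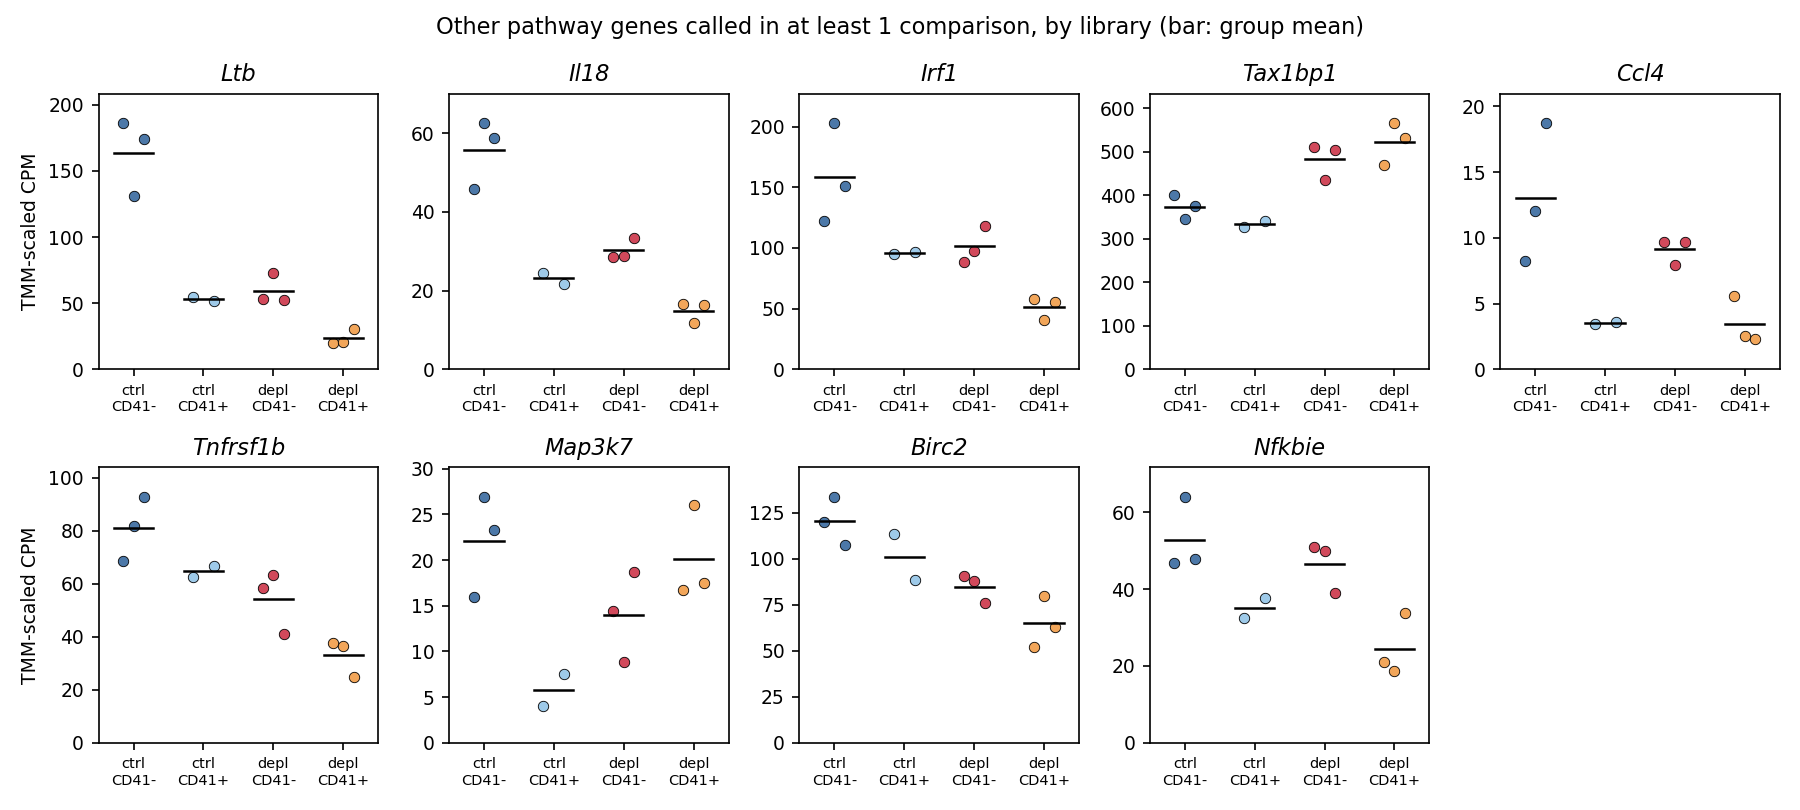
CPM in every library of the 9 other pathway genes called in at least 1 comparison, 1 panel per gene, with group means as bar lines. Ltb lies at 131 to 186 CPM in control CD41- and at 20.0 to 30.3 CPM in depleted CD41+ libraries. Tax1bp1 is the gene called as higher after depletion, on average over the fractions.

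Between the CD41 fractions, 5 of the 78 genes were called as lower and 0 as higher in CD41+ cells on average, with a median of -0.22. Over all genes 5.38% were called, 367 higher and 357 lower, with a median of -0.03, so here too the number called was near the background. After Ltb these were Il18 (-1.16 ± 0.19, adjusted p = 0.00463) and Irf1 (-0.86 ± 0.16, adjusted p = 0.00848), both called in 18 of 18 alternatives. The chemokine Ccl4 (-1.72 ± 0.36, adjusted p = 0.0153) was not called without control CD41+ replicates 1 (0.0592) or 2 (0.0636). Nfkbie, the inhibitor IkappaBepsilon, was at 39.0 to 64.1 CPM in CD41- and 18.6 to 37.7 CPM in CD41+ libraries (-0.75 ± 0.20, adjusted p = 0.0423), and was called in 8 of 18 alternatives (up to 0.143, without control CD41+ replicate 1).

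Among control libraries, Ltb, Il18 (-1.27 ± 0.28, adjusted p = 0.0289) and Map3k7 were lower in CD41+ cells, 3 of the 78 where 2.62% of all genes were called. Map3k7, the kinase TAK1 upstream of the IkappaB kinases, had 15.95, 27.0 and 23.3 CPM in control CD41- against 4.01 and 7.48 CPM in control CD41+ libraries (-1.94 ± 0.46, adjusted p = 0.0419). These calls were not firm: Il18 was called in 12 of 19 alternatives (up to 0.204, without control CD41+ replicate 2) and Map3k7 in 9 of 19 (up to 0.222, without control CD41+ replicate 1). In depleted mice Map3k7 was at 8.80 to 18.7 CPM in CD41- and 16.7 to 26.1 CPM in CD41+ libraries, and the difference of its responses, 2.48 ± 0.59, did not pass (adjusted p = 0.376).

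The genes whose profile over the 11 libraries was most like that of a member were searched among 9326 genes that averaged 10 CPM or more, by Pearson's r of log2 CPM. For Nfkbia they were Pank3 (r = 0.951), Tcp11l2 (0.927), Mospd2 (0.923), Ccrl2 (0.921) and Iqcb1 (0.911). For Icam1 they included Ptpre (0.957), Ltb (0.955), Cbfa2t3 (0.948) and Tinagl1 (0.943). These are descriptions of 11 libraries that fall into 4 groups and differ in depth, taken as the extremes of a large search.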

How the data were processed

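The deposited values are raw counts of reads per gene made by the authors. The tools named in the submitters' processing notes are cutadapt, STAR and HTSeq 0.6.1p1, and the builds GRCm38 and mm10. No source used here gives the annotation release or strand setting. Per the labels' protocols, poly-A RNA was copied by template switching, amplified and tagmented, without molecular identifiers, so counting precision does not cover amplification error.

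Groups were taken from the labels, which state no batch or pairing. Identifiers were matched to symbols and exon lengths of the reference annotation on GRCm38. Genes were filtered with filterByExpr (minimum count 10, minimum total 15), which kept 13448 genes and 99.7% of counts, scaled by TMM, and fitted with the robust quasi-likelihood model of edgeR 4.0.16 (R 4.3.3), with 1 coefficient per group over all 11 libraries. The 7 comparisons were CD41+ against CD41- within either treatment and averaged, depleted against control within either fraction and averaged, and the interaction of both. Each was adjusted by Benjamini-Hochberg at 0.05. Procedures were tested on simulated data.

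All 10 members are named in the comparisons. Of the other pathway lists, the called genes and the 2 most abundant per list are named, and for Nfkbia and Icam1 the 5 genes with the highest correlation, of which 1 is not reported here. Genes named as not passing the filter, as overlapping a member or as relatives of Icam1 were chosen besides. The members and lists were chosen with earlier results of these data known. Alternatives tried were library size alone, RLE factors, no robust fit, no filter, DESeq2 1.42.0, limma 3.58.1 voom with quality weights, the compared groups only, a block of consecutive title numbers, each library left out, the longest transcript as length, and the looser motif. Figures were drawn with matplotlib 3.10.9.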

Additional observations from a re-analysis of the deposited data

How the results depend on the processing

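The results that carried the account, the lower Nfkbia after depletion and the lower Relb in CD41+ cells, kept their sign in every alternative run. Of the values for single genes, tests and levels together, 1470 stayed the same. For tests this means the same direction and side of the threshold, and for levels a shift within the spread between replicates. Of the tests, 68 lost a call, 15 gained one and 60, all among values that were not called, changed sign. A further 23 levels moved by more than the spread between replicates. Depth limited Rel, Tnfaip3, Nfkbiz, Relb and Bcl3, which had under 10 reads in the shallowest library. The cause of the shifts below was not tested.

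Comparisons are given in the order CD41 (control, depleted, averaged), depletion (CD41-, CD41+, averaged) and difference of responses. Genes called over the whole table numbered 352, 26, 724, 429, 14, 851 and 0. Without a filter they numbered 1142, 387, 1674, 862, 317, 1336 and 178, and members called became 2 in CD41- and 1 in CD41+ cells. With DESeq2 they numbered 994, 204, 1441, 851, 266, 1407 and 35, and members called were 1 (CD41 in control), 2 (CD41 on average), 2, 2 and 3 (the 3 depletion comparisons). Voom gave 176 and 104 for CD41 in control and depleted mice, 8 for depletion in CD41+ cells, and 2 members in CD41- cells. The compared groups alone gave 143 for CD41 in control mice, 0 for depletion in CD41+ cells (7 without the robust fit) and 2 members in CD41- cells. Scaling by library size moved the median over genes for CD41 in control mice from -0.03 to -0.15 and the split of higher and lower genes from 212 and 140 to 129 and 157. On average it moved from -0.03 to -0.12 and from 367 and 357 to 250 and 445.

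Leaving out 1 library at a time gave 48 to 545, 5 to 32, 300 to 788, 169 to 560, 0 to 57 and 291 to 1060 genes in the first 6 comparisons, and 0 to 2, 0 to 2 and 1 to 2 members for CD41 on average, depletion in CD41- cells and depletion on average.

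Pairing by consecutive title numbers, which no label states, gave as a replicate block 158 genes for CD41 in depleted mice and 2 for the difference of responses. Deviations of paired libraries correlated at 0.080 and 0.098 in control and at 0.228, 0.343 and 0.207 in depleted mice. Under the block, Nfkbiz for CD41 in depleted mice turned to 0.13, and the differences of responses of Relb, Nfkb1 and Bcl3 to -0.012, -0.034 and -0.19. It changed no call of a member, and of the other pathway genes Il18 and Map3k7 lost theirs for CD41 in control mice (adjusted p = 0.0542 for both).

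Values that were not called also changed sign elsewhere. With the settings used above, Rel for depletion in CD41+ cells was -0.44 ± 0.69 and Bcl3 for CD41 in depleted mice 0.40 ± 0.63. With library size alone, the CD41 values of Nfkbia were -0.072, -0.047 and -0.059, and the differences of responses 0.031 for Rela and 0.025 for Nfkbia. Without a filter, Nfkbia for CD41 in depleted mice was -0.015 and Nfkb2 for depletion in CD41- cells 0.031. With voom, CD41 in depleted mice gave 0.60 for Nfkbiz and -0.093 for Bcl3, depletion gave 0.054 for Tnfaip3 in CD41- cells, 0.13 for Rel in CD41+ cells and -0.33 for Nfkbiz on average, and the difference of responses of Bcl3 was -0.39.

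With 1 library left out, Bcl3 ranged from -0.091 to 0.51 for CD41 in control mice, -0.029 to 0.90 in depleted mice, -0.63 to 0.30 for depletion in CD41+ cells and -0.26 to 0.68 for the difference of responses. For that difference, Icam1 ranged from -0.092 to 0.23, Nfkb1 from -0.019 to 0.18, Nfkbia from -0.15 to 0.068, Rela from -0.30 to 0.085 and Relb from -0.11 to 0.68. For CD41, Nfkb1 in depleted mice ranged from -0.19 to 0.0096, Nfkb2 in control mice from -0.34 to 0.064, Nfkbia from -0.10 to 0.12 in depleted mice and -0.023 to 0.087 on average, and Nfkbiz in depleted mice from -0.67 to 1.29. For depletion, Nfkb2 in CD41- cells ranged from -0.12 to 0.098, Tnfaip3 in CD41- cells from -0.36 to 0.27, Nfkbiz on average from -0.62 to 0.28, and in CD41+ cells Rel from -1.24 to 1.56 and Relb from -0.60 to 0.17.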
